A study of Mus musculus with 10 samples.

Results

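Of the 15119 peaks of ZFP266 DamID-seq in mouse embryonic fibroblasts (MEFs), 4500 (29.8%) held at least 1 AP-1 motif and no B1 SINE, and these B1-free AP-1 peaks are described here. A peak was taken when it held an exact match to the 7-base sequence TGACTCA, or to the same motif read on the other strand, TGAGTCA, and when it shared no base with a match to the B1 SINE consensus of at least 80 bp at 70% identity. B1-free thus means without such a match, and shorter or more diverged B1 remnants can remain. Other SINE families were not searched for, and the study reported that most of its peaks overlap a SINE. The remaining peaks were 2188 with both features, 2786 with a B1 SINE only and 5645 with neither. MEFs of the 129 strain had been nucleofected with PGK-mO-Dam (Dam only, 5 samples) or with PGK-mO-Dam-Zfp266 (Dam-ZFP266, 5 samples), and DNA was taken from sorted cells 48 h later. In both plasmids the PGK promoter drives mOrange as the upstream reading frame, and Dam or the fusion is made by reinitiation of translation, so the fusion was added to cells that keep their own Zfp266 gene. From the 10 samples the authors called 1 peak list of Dam-ZFP266 over Dam only. That list gives no value for a single sample, so the depth of the samples and the error between replicates are unknown, and no comparison here is tested over replicates. Intervals in brackets are 95% Wilson intervals over peaks, motifs or genes and cover counting error only.

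AP-1 is a dimer of proteins of the Fos, Jun and related families, and its classical binding site is the TPA response element, the palindrome-like motif searched here. In fibroblasts AP-1 occupies many distal enhancers, often together with TEAD factors, and responds to serum, growth factors and stress. B1 is an abundant rodent SINE, a short retrotransposon, and ZFP266 is a zinc finger protein with a KRAB domain, a family of which many members bind retrotransposons. In DamID-seq the fused bacterial methylase Dam marks the adenine of GATC sites close to where the protein sits. The readout therefore comes in DpnII fragments, the stretches between neighbouring GATC sites, and a motif inside a fragment can lie at a distance from the protein.

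The sequences below show an arrangement found in a small part of these peaks, namely many copies of the motif in tandem. Each line gives the gene at or nearest to the peak, the position in GRCm38 and a stretch of the plus strand with every AP-1 motif in capitals. The first 6 are windows of 240 bases from the B1-free peaks with the most motifs. The last 3 are windows of 120 bases around a single motif, from the peak with the highest signal value outside Zfp266, from an intron of another zinc finger gene and from a promoter.
Calcr, chr6:3853709-3853948 (between genes): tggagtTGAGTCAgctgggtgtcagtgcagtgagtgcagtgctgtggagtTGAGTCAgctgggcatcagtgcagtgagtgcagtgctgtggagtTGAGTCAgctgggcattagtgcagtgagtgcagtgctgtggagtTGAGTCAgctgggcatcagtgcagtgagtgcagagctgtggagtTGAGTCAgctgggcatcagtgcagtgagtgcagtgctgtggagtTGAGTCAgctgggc
Slc28a3, chr13:58654185-58654424 (between genes): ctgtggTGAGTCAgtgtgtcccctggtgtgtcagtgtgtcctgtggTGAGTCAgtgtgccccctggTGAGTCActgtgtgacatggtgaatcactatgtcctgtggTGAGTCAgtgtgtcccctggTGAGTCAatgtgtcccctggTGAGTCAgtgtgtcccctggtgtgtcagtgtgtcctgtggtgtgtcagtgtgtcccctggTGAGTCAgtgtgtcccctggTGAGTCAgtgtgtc
Dnajc13, chr9:104201274-104201513 (intron): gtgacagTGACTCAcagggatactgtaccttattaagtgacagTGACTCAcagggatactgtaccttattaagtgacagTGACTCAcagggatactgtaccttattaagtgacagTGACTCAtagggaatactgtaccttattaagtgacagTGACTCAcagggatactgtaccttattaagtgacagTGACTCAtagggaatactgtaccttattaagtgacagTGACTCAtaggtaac
Kdelr2, chr5:143413892-143414131 (intron): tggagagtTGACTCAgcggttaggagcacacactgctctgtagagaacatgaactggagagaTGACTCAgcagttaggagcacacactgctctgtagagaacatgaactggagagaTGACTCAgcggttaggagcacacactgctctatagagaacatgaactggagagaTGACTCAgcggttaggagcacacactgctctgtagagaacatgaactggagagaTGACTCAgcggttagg
Efr3b, chr12:3973066-3973305 (intron): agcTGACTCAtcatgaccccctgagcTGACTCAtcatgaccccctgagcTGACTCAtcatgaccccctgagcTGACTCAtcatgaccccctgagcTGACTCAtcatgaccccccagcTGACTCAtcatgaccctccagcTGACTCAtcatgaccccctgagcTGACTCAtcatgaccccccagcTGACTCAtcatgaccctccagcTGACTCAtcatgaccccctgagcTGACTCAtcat
Spata17, chr1:187171916-187172155 (intron): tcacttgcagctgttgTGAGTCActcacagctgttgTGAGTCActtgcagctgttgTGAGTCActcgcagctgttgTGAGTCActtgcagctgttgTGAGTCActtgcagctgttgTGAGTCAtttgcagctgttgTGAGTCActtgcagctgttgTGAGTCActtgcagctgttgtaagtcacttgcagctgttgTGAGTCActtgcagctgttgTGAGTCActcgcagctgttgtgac
H2af-ps2, chr13:51285570-51285689 (between genes): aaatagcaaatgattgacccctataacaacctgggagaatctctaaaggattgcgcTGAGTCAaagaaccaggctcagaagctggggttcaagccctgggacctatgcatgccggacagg
Zfp37, chr4:62200353-62200472 (intron): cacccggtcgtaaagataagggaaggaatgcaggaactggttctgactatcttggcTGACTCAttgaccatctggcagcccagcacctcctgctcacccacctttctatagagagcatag
Fam50b, chr13:34733981-34734100 (promoter): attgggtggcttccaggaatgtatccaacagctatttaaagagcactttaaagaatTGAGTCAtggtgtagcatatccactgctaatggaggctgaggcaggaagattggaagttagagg

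In the first 6 windows the motif recurs many times and always on the same strand. Near Calcr, which encodes the calcitonin receptor, the peak (chr6:3852989-3854787, 1799 bp, 1 DpnII fragment) held 33 motifs. Of these, 32 formed a run on the minus strand over 1459 bp, in which 29 of the steps between neighbours were exactly 44 bp, and the signal value was 1.22. The peak near Slc28a3, which encodes a nucleoside transporter, held 27 motifs with 20 bp as the most frequent step. It was also among the strongest B1-free AP-1 peaks, with a signal value of 2.07. The signal value is the caller's measure of Dam-ZFP266 relative to Dam only, on a scale that the sources used here do not give.

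The other windows came from introns. An intron of Dnajc13, whose product is an endosomal co-chaperone, held 19 motifs with 37 bp as the most frequent step and had a signal value of 1.69. In an intron of Kdelr2, which encodes a receptor that returns proteins to the endoplasmic reticulum, 19 motifs had 54 bp as the most frequent step and the signal value was 1.75. An intron of Efr3b, which encodes a membrane anchor of a lipid kinase, held 18 motifs with a most frequent step of 23 bp and a signal value of 1.91. The peak in an intron of Spata17 held 17 motifs in 2 runs with steps of 20 bp, and its signal value was 1.13. All 6 peaks lay above the median signal value of the B1-free AP-1 peaks, which was 0.849. Bases that the reference marks as repeats made up 57.8% of the Kdelr2 peak and 56.8% of the Calcr peak. In the others they made up 1.77 to 17.3%.

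**Figure D1:**
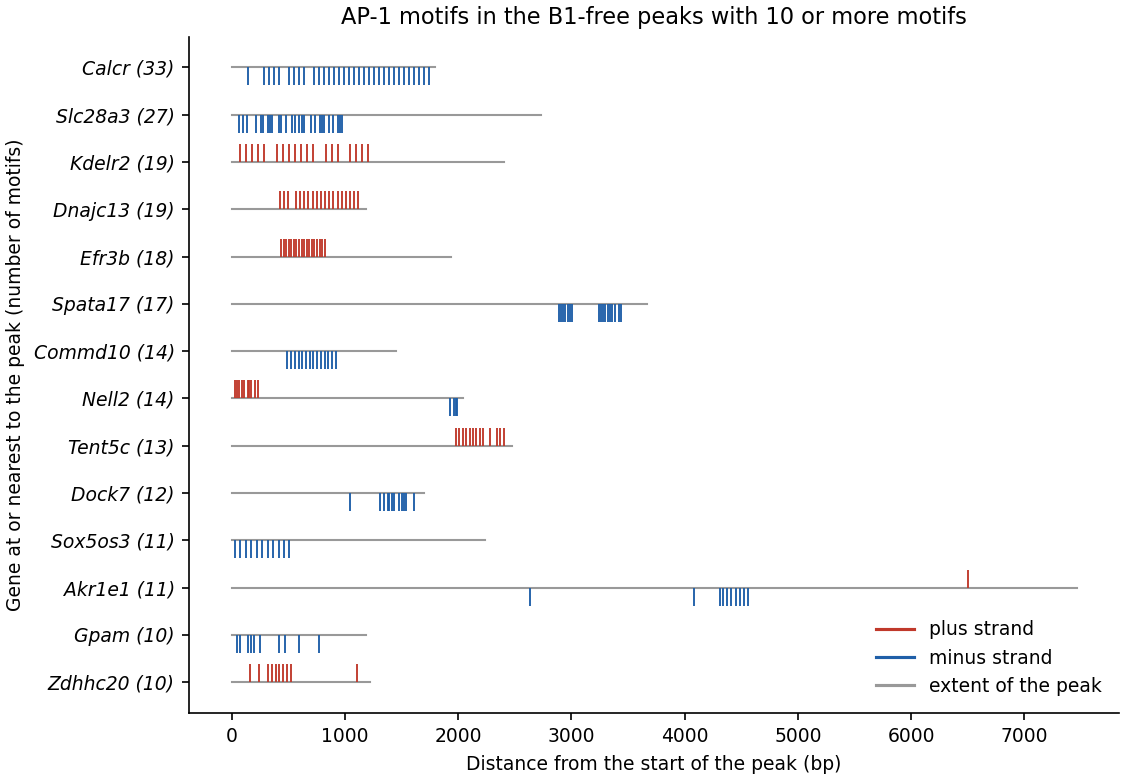
Positions of AP-1 motifs in the 14 B1-free peaks with 10 or more motifs. The x axis is the distance from the start of the peak in bp, grey lines span the peak, and red and blue ticks are motifs on the plus and minus strands; the gene and the number of motifs stand at the left. In 12 of the 14 peaks all motifs lie on 1 strand.

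Such peaks were the end of a steep distribution. The 4500 peaks held 6932 motifs in all: 2912 peaks (64.7%) held 1 motif, 1102 held 2, 364 held 3 and 73 held 4. The 49 peaks with 5 or more motifs held 6.23% of the motifs. At least 2 motifs were present in 35.3% of the peaks (33.9 to 36.7%), against 35.1% of the peaks with both an AP-1 motif and a B1 SINE. All 14 peaks with 10 or more motifs held a tandem run, as drawn in the map of motif positions. A tandem run is defined here as 5 or more motifs on 1 strand with at most 100 bp between neighbours, a definition set after the positions had been seen.

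Across the genome, 74 such runs existed, and 36 of them (48.6%, 37.6 to 59.8%) lay in a ZFP266 peak. Of these, 26 lay in 24 of the 4500 B1-free AP-1 peaks and 10 among the 2188 peaks that also held a B1 SINE. The arrangement was thus not particular to B1-free peaks. Peaks with a run and a B1 SINE had signal values from 0.696 to 2.37. By contrast, single motifs, those with no neighbour on their strand within 100 bp, lay in a peak in 9062 of 421595 cases (2.15%). With more copies the share was 7.34% for pairs (375 of 5110), 20.4% for 3 to 4 copies (38 of 186) and 48.9% for 5 to 9 copies (23 of 47), with intervals that did not overlap. With 10 or more copies it was 48.1% (13 of 27), so the 2 largest classes did not differ beyond their intervals. The share of single motifs in a peak was larger in longer DpnII fragments, and the contrast was present at each fragment length. In fragments under 1 kb, 14 of 28 runs lay in a peak against 1.16% of single motifs. In fragments of 1 to 2 kb, 16 of 29 runs lay in a peak against 3.54%, and in longer fragments 6 of 17 against 7.09%.

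Tandem repetition of other words was counted in the same way, leaving out runs with an AP-1 motif within 500 bp. Of 2433 runs of 5 or more copies of the 19 words that differ from the AP-1 motif at 1 base, 143 (5.88%, 5.01 to 6.88%) lay in a peak. The share was 1.93% for the KLF motif (24 of 1243 runs), 6.06% for the RUNX motif TGTGGTT (6 of 99), 5.26% for the C/EBP motif (2 of 38) and 4.88% for the SOX motif CCATTGT (2 of 41). The ETS motif gave 2 such runs, 0 of them in a peak, which allows a share of up to 65.8%, and the CRE gave 0 runs. Runs of the TEAD motif GGAATGT stood between these and AP-1, with 7 of 37 in a peak (18.9%, 9.48 to 34.2%). For TEAD, the share among runs of 10 or more copies was 36.4% (4 of 11), and its interval overlapped that of AP-1. How many copies of each repeat the 129 genome carries and how well reads align inside repeats could not be read from the peak list, and their part in these shares was not tested.

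**Figure D2:**
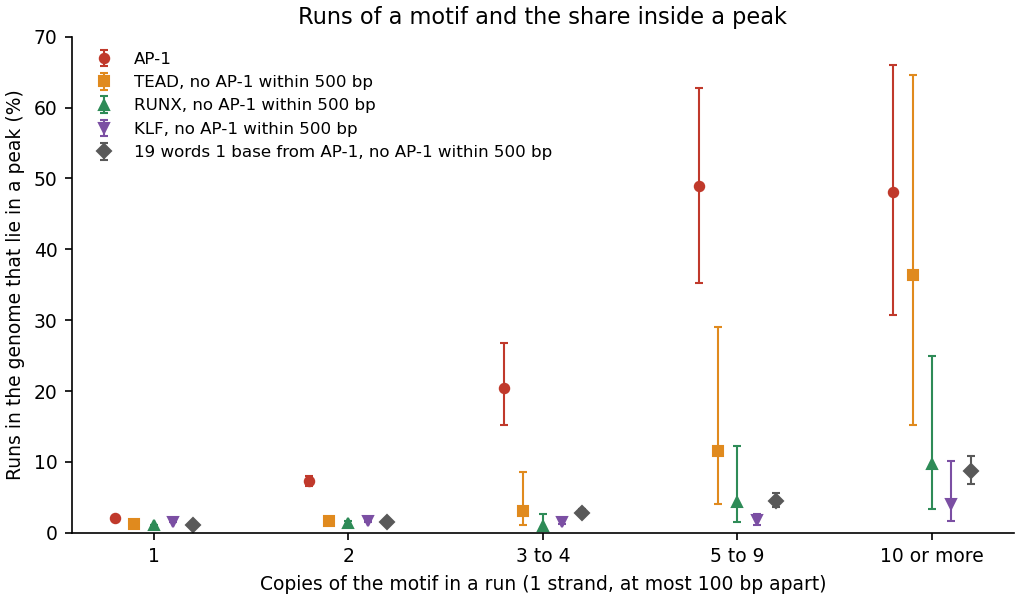
Share of the runs of a motif that lie in a ZFP266 peak (y axis, %) by the number of copies in the run (x axis) over the whole genome. Points are shares and bars are 95% Wilson intervals; AP-1 runs of 5 or more copies lie at 48.1 to 48.9%, above the runs of the RUNX and KLF motifs and of words 1 base from AP-1, while TEAD runs of 10 or more copies lie at 36.4% with an overlapping interval.

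Within the B1-free AP-1 peaks, the 24 peaks with a tandem run also stood apart in signal. Their signal values ran from 0.651 to 2.07 with a median of 1.37, and 21 of the 24 exceeded the median of all B1-free AP-1 peaks. The remaining B1-free AP-1 peaks had a median of 0.847. Among peaks of 1 to 2 kb, the median was 1.39 in the 13 peaks with a run and 0.906 in the 1725 without one. A second measure was the share of peaks with a q-value under 0.05 and a signal value above 1. The study's methods give these cut-offs as an example for the FDR and the log2 fold change, and the latter was applied here to the signal value, whose scale is not given. This share was 26.4% over all peaks of the list, whose own q limit is 0.1. It was 22.6% for the B1-free AP-1 peaks (1019 of 4500, 21.4 to 23.9%), 83.3% for those with a tandem run (20 of 24) and 22.3% for the others. The 25 peaks with 5 or more motifs and no run were long (median 3848 bp), with a median signal value of 0.712, and 7 of the 25 met the threshold. The B1-free AP-1 peaks of 3000 to 4000 bp had a median of 0.732, and 14.1% of them met it.

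The runs were spread over 17 chromosomes and were not confined to a kind of locus. Of the 24 peaks, 15 had their midpoint in an intron, 8 lay between genes and 1 in an exon or promoter. The most frequent step ranged from 16 to 54 bp with a median of 33 bp, and in 23 of the 26 runs at least 50% of the steps were identical. Of the motifs in these runs, 15.6% (42 of 270) lay in bases that the reference marks as repeats, near the 17.4% of all motifs in B1-free AP-1 peaks. Runs that peaks did not cover numbered 38, with up to 41 copies, and their DpnII fragments had a median length of 1265 bp, against 1100 bp for the runs in peaks. Among further peaks with runs were those in introns of Commd10 (14 motifs with a most frequent step of 33 bp, signal value 1.79), Nectin3, which encodes a cell adhesion molecule (9 motifs, 1.36), and Man2a1, which encodes a mannosidase of the Golgi (5 motifs, 1.57). The lowest signal value, 0.651, belonged to a peak of 7461 bp near Akr1e1.

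Below 5 motifs, peaks with more motifs were longer and had lower signal values. Median signal values were 0.872 with 1 motif, 0.810 with 2, 0.778 with 3 and 0.723 with 4, while median lengths rose from 1799 to 2161, 2715 and 3319 bp. Among peaks of 1 to 2 kb the medians were 0.914, 0.875 and 0.899 with 1, 2 and 3 motifs, with quartiles that overlapped widely (0.787 to 1.06 with 1 motif). In that length range the 8 peaks with 4 motifs had a median of 1.16, and the 14 with 5 or more a median of 1.37. Across all kinds of peak the signal value was lower in longer peaks. At each length from 500 bp upward the B1-free AP-1 peaks had the lowest median of the 4 kinds, for example 0.929 against 0.967, 0.971 and 0.992 at 1000 to 1500 bp. These differences were small beside the spread between peaks, whose quartiles at that length were 0.802 and 1.07.

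**Figure D3:**
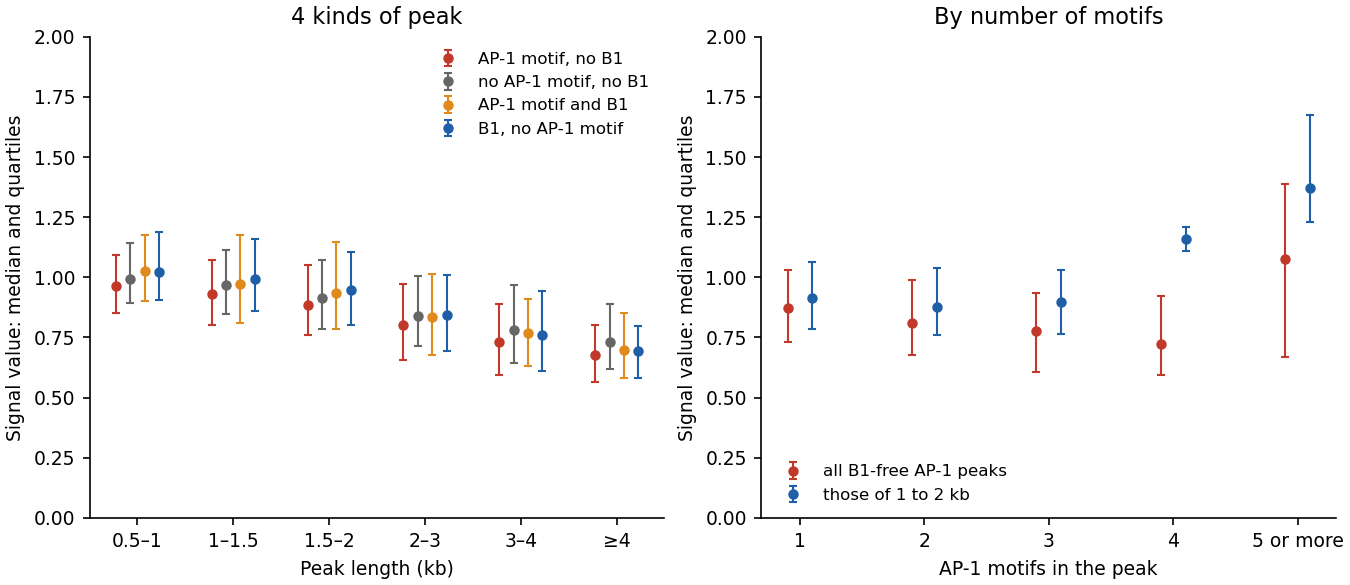
Signal value (y axes; median with quartiles as bars) by peak length in kb for the 4 kinds of peak (left) and by number of AP-1 motifs for the B1-free AP-1 peaks (right). Signal values fall with length in all 4 kinds, and at 1 to 2 kb they are alike for 1 to 3 motifs and higher, at 1.16 and 1.37, for 4 and for 5 or more.

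Length was part of what the rule chose, since a longer stretch holds a 7-base match more often. The B1-free AP-1 peaks had a median length of 1972 bp and a median of 2 DpnII fragments, against 1479 bp and 1 fragment for the peaks with neither feature. Of windows of 2 kb tiled over the genome without a B1 SINE, 26.8% held an AP-1 motif and 4.68% held at least 2. The share of B1-free peaks with a motif was therefore set beside B1-free DpnII fragments of like length outside peaks. Among B1-free peaks of 1 fragment, 25.7% held a motif at 500 to 1000 bp (418 of 1624, 23.7 to 27.9%) against 10.5% of the fragments outside peaks. At 1000 to 1500 bp the shares were 32.8% and 18.1%, and at 1500 to 2000 bp they were 39.1% and 24.3%. At 2000 to 3000 bp they were 41.7% and 32.2%, so the ratio went from 2.46 to 1.29 with length. For 2 or more motifs the ratio was larger at every length, 6.99 at 500 to 1000 bp and 2.06 at 2000 to 3000 bp. The list's 5645 peaks with neither feature show the other side of these shares: at all lengths up to 3 kb most B1-free peaks of 1 fragment held no exact AP-1 motif.

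Inside the peaks, the motifs had almost no preferred position. The stretch from 25% to 75% of the peak length held 51.6% of all motifs (50.5 to 52.8%), where an even spread gives 50%, and 49.97% of the motifs in peaks with a single motif. In peaks of 1 fragment with 1 motif the share was 47.1% (44.7 to 49.6%), and in peaks of several fragments with 1 motif it was 53.3% (50.6 to 55.9%). The median distance from a motif to the midpoint of its peak was 462 bp, and 2832 of the 4500 peaks (62.9%) had a motif within 500 bp of the midpoint. Both strands were used alike, with 3465 of 6932 motifs on the plus strand. Motifs in the peaks lay at a median of 260 bp from the nearest GATC, against 146 bp outside peaks, in DpnII fragments with median lengths of 1221 and 709 bp.

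**Figure D4:**
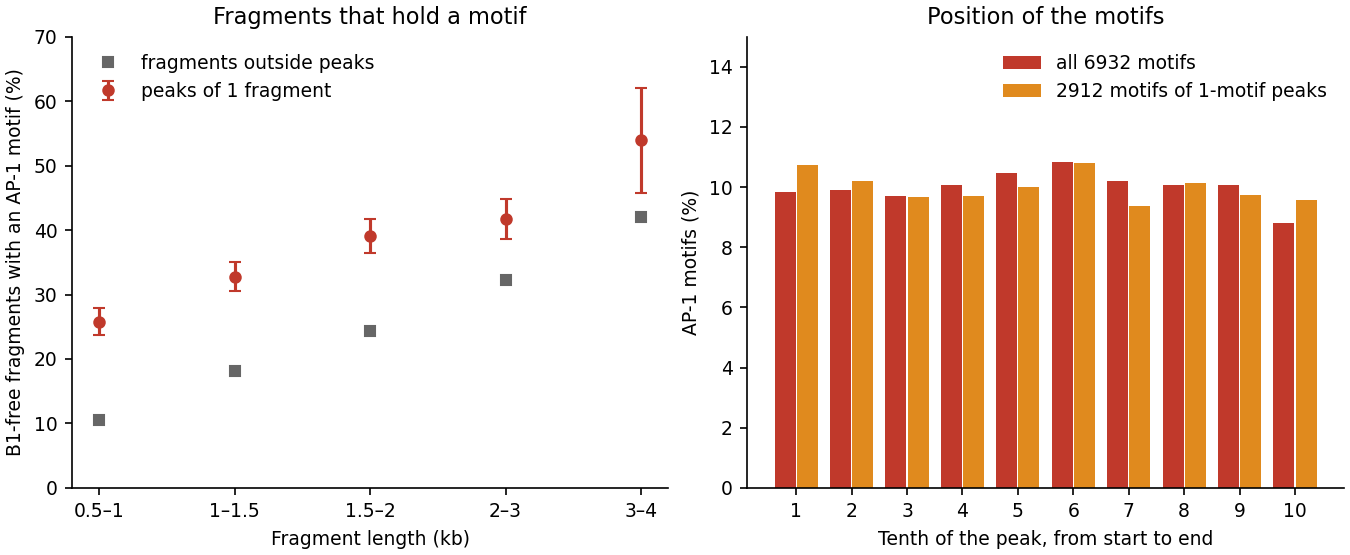
Left, share of B1-free DpnII fragments with an AP-1 motif (y axis, %) by fragment length in kb, for peaks of 1 fragment (circles with 95% Wilson intervals) and for all fragments outside peaks (squares), where the share is 25.7% against 10.5% at 0.5 to 1 kb. Right, percentage of the motifs in each of 10 equal bins from the start to the end of the peak, for all 6932 motifs and for the 2912 motifs of peaks with 1 motif; every bin holds between 8.81 and 10.8%.

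Neighbouring motifs stood closer together than motifs elsewhere in the genome. Leaving out tandem runs, 15.5% of the motifs in B1-free AP-1 peaks had another AP-1 motif within 100 bp (1033 of 6662), against 4.30% of the 422487 motifs outside peaks. This was so for motifs in fragments under 500 bp (21.4% against 4.49%) and in those of 2 kb or more (10.4% against 4.02%). It was not particular to B1-free peaks. With runs included, the share was 14.1% in peaks with both an AP-1 motif and a B1 SINE (471 of 3341) and 18.8% in B1-free AP-1 peaks. Of the 1102 peaks with exactly 2 motifs, 252 (22.9%) had them within 100 bp, and 140 of these pairs were on 1 strand. The median spacing in these peaks was 438 bp.

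The bases beside the motif differed from those of motifs outside peaks. Read in the orientation TGACTCA, the motif had A or G before it and C or T after it in 29.8% of cases in B1-free AP-1 peaks outside runs (1987 of 6662, 28.7 to 30.9%) and in 21.8% outside peaks. The reverse arrangement, C or T before and A or G after, made up 18.96% and 27.3%. Of the 16 pairs of flanking bases, G with T, A with T and A with C had the highest ratios, each 1.44. T before with A after had the lowest, at 2.45% in the peaks and 4.96% outside (ratio 0.493). Restricting both sets to bases not marked as repeats gave 31.3% and 21.7% for the former arrangement. In the peaks with both an AP-1 motif and a B1 SINE the share was 28.0% over all 3341 motifs, of which 82 lay in runs.

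Motifs of factors known to act with AP-1 were sought within 100 bp on both strands, using the partner list in the methods. A TEAD motif stood within 100 bp of 4.64% of the AP-1 motifs in B1-free AP-1 peaks outside runs (309 of 6662) and of 3.08% outside peaks. In every class of fragment length the share was higher in the peaks, from 4.39% against 2.81% in fragments under 500 bp to 4.45% against 3.75% at 2 kb or more, where the interval in the peaks (3.42 to 5.77%) held the value outside. KLF motifs were found near 5.51% and 3.83%. RUNX (5.12% and 5.09%), C/EBP (9.23% and 8.84%) and SOX motifs (3.12% and 3.02%) were about as frequent in both. The CRE TGACGTCA, the related site of ATF and CREB proteins, and the ETS motif CCGGAAGT were rare, with 14 and 22 cases in the peaks (0.210% against 0.105% and 0.330% against 0.147%). Over whole peaks, 33.5% of the B1-free AP-1 peaks and 25.1% of the shorter peaks with neither feature held a TEAD motif.

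The place of the B1-free AP-1 peaks relative to genes depended on the annotation. By the RefSeq annotation, their midpoints lay between genes in 53.7% (2418 peaks, 52.3 to 55.2%), in introns in 43.0% (1936), in promoters in 1.80% (81) and in exons in 1.44% (65). A promoter was taken as 1000 bp before to 100 bp after a transcript start. Peaks with neither feature were in promoters or exons more often (2.62% and 2.66%), and those with a B1 SINE only were between genes less often (43.9%). The median distance to the nearest transcript start was 35693 bp, against 26121 bp for peaks with neither feature, 17657 bp with both and 12431.5 bp with a B1 SINE only. With GENCODE vM21 basic transcripts in place of RefSeq, 46.6% of the B1-free AP-1 peaks lay between genes and 47.5% in introns, and their median distance was 16510.5 bp. At 22.7% of the B1-free AP-1 peaks the nearest start was 100 kb or more away, against 17.5%, 7.31% and 6.21%. B1 SINEs are dense near genes, so the absence of a B1 SINE and the distance from genes cannot be told apart here. The nearest B1 SINE was a median of 3558 bp away, with 22.2% of the peaks having a B1 SINE within 1 kb and 22.5% having none within 10 kb. Of 32851 RefSeq promoter windows of 300 bases, 1709 held the motif.

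The strongest B1-free AP-1 peaks outside Zfp266 lay mostly between genes by RefSeq, as did 53.7% of all B1-free AP-1 peaks. The highest signal value, 2.49, belonged to a peak of 687 bp (chr13:51285227-51285913) with 1 motif, 82504 bp from the start of the pseudogene H2af-ps2. The next was 2.18 in a peak of 4547 bp with 2 motifs, 208502 bp from the start of the non-coding RNA Hand2os1. A peak with 2 motifs in an intron of Zfp37, a zinc finger gene (chr4:62200064-62201661), had 2.16. The peaks near Slc28a3 and in Efr3b, both tandem runs, ranked among the 8 highest with 2.07 and 1.91. A peak with 3 motifs (1.97) lay 1135868 bp from the nearest start, that of Nova1, a neuronal splicing factor, and one with 1 motif (1.96) lay 18215 bp from the start of the pseudogene Gm4956. The last of the 8, with 2 motifs and 1.89, covered an exon of Ubap1, which encodes a subunit of the ESCRT-I complex. The 2 peaks inside Zfp266 itself had signal values of 8.66 and 8.33, each with 1 motif. The transfected plasmid carries Zfp266, and the study's methods removed peaks over its exons from other displays, so these values are not read as binding.

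At promoters, the 81 B1-free AP-1 peaks were led by Fam50b (signal value 1.73, q = 7.5e-05, midpoint 765 bp from the start) and Asb3 (1.46, 144 bp), whose product has ankyrin repeats and a SOCS box. Next came the non-coding RNA Gm40178 (1.39, 190 bp) and Cdt1, a licensing factor for DNA replication (1.37, 488 bp). 6820408C15Rik (1.36), 1500015L24Rik (1.35), Rpp40, a subunit of RNase P (1.30), and Rasa2, a GTPase-activating protein for Ras (1.25), completed the 8. Each of these 8 peaks held 1 motif.

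Of 21000 protein-coding genes, 1999 (9.52%) had a B1-free AP-1 peak in the gene or within 10 kb, and 5718 (27.2%) had any peak. In the gene body alone, 1366 genes had a B1-free AP-1 peak, 336 had at least 2 and 24 had at least 5. The share depended on gene length, from 2.14% of the 2100 shortest genes (median 946 bp) to 34.4% of the 2100 longest (median 182937 bp). Genes with many B1-free AP-1 peaks in the body were accordingly long, with a median of 413406 bp for the 24 genes with at least 5. Ltbp1, which encodes a matrix protein that holds latent TGF-beta, and Atxn1, the ataxin-1 gene, had 8 each. The transcription factor gene Glis3 and the kinase gene Camk1d had 7 each. Genes with 6 each included Ano6 (a lipid scramblase), Ext1 (heparan sulfate synthesis), Apbb2 and Mast4. Per length, Ano6 with 32.5 peaks per Mb was denser than Ltbp1 with 20.7 and Mast4 with 9.97.

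Gene lists of the fibroblast, of AP-1 itself and of pluripotency were read beside the 9.52% of all protein-coding genes and beside the share among genes of like length, taken as the mean over the length bins of 2100 genes that the listed genes fall in. Among 14 genes of the AP-1 family, 3 had a B1-free AP-1 peak within 10 kb (21.4%, against 7.08% at like length). For Jund, which encodes a Jun family member, the peak lay 1875 bp downstream, with its midpoint in an intron of another gene (signal value 1.07). For Jdp2, a repressive family member, it was a 372-bp peak with 2 motifs inside the gene (1.02), and for Fosb it covered an exon (0.751, q = 0.0788). Of 24 genes known from textbooks as AP-1 targets, only Hmox1 and Plaur had such a peak (8.33%, against 5.22%). For Hmox1, heme oxygenase 1, it lay 3375 bp upstream (1.16). For Plaur, the urokinase receptor, the strongest lay 7808 bp downstream, with its midpoint in an intron of another gene (0.974). Any peak of the list was near 7 of the 14 genes (50%, against 24.3% at like length) and 11 of the 24 (45.8%, against 20.8%).

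The highest shares were seen for signalling genes, whose shares with any peak were also above those at like length: 80% against 48.1% for growth factor receptors, 78.6% against 43.1% for the TGF-beta pathway and 71.4% against 31.9% for YAP and TEAD genes. Of 10 growth factor receptor genes, 6 had a B1-free AP-1 peak (60%, against 23.1% at like length), led by Ddr2, a collagen receptor kinase. A peak with 2 motifs in an intron of Ddr2 had a signal value of 1.80 and q = 2.2e-06, and Fgfr2 (0.993) and Igf1r (0.905) followed. Of the 6 genes, only Ddr2 had a B1-free AP-1 peak that met the threshold of q under 0.05 and signal value above 1. In the TGF-beta pathway it was 7 of 14 genes (50%, against 18.1%), led by Ltbp1 (1.59), the receptor gene Tgfbr2 (1.41) and Smad3 (1.12), which encodes a mediator of TGF-beta signals. These 3 were the genes of the 7 with a B1-free AP-1 peak that met the threshold. Among YAP and TEAD genes it was also 7 of 14 (50%, against 11.9%). There the highest signal values were 1.04 for Ankrd1, a target of YAP, with a peak 1003 bp upstream, 0.931 for Tead4 and 0.873 for Amotl2. None of these 7 YAP and TEAD genes had a B1-free AP-1 peak that met the threshold. Over all protein-coding genes, 2.55% had such a peak that met the threshold within 10 kb, against 9.52% with any B1-free AP-1 peak. No share at like length was taken for this threshold, and the counts of 1, 3 and 0 genes were not tested.

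For the other lists the gap to genes of like length was smaller in percentage points. Their shares with any peak were also above like length: 57.1% against 31.1% for actin and adhesion, 52% against 36.5% for matrix genes and 50% against 36.9% for transcription factors. Of 21 actin and adhesion genes, 5 had a B1-free AP-1 peak (23.8%, against 10.3%), namely the integrin genes Itgb1 (1.45) and Itgav (1.02) as well as Actn1 (0.988), Tpm1 and Vcl. Of 25 fibroblast matrix genes it was 5 (20%, against 13.9%), with Col5a2, a chain of type V collagen, highest (1.39), then Lox, the collagen cross-linking enzyme (1.16), and Loxl2 (0.912). Of 20 fibroblast transcription factor genes it was 4 (20%, against 16.7%), with Runx2 at 1.56, Tcf4 at 1.26 and Zeb2 at 0.850. None of the 15 pluripotency genes had a B1-free AP-1 peak within 10 kb, where genes of like length gave 7.26%. With 15 genes that share leaves few genes, so a count of 0 does not set the list apart. Some other peak was near 4 of the 15 (26.7%, against 23.4% at like length). Genes with a B1-free AP-1 peak that met the threshold numbered 2 each for actin and adhesion, matrix and transcription factors. They numbered 2 for the AP-1 family, 1 for textbook AP-1 targets and 0 for pluripotency. The lists hold 10 to 25 genes each, so single genes move these shares.

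**Figure D5:**
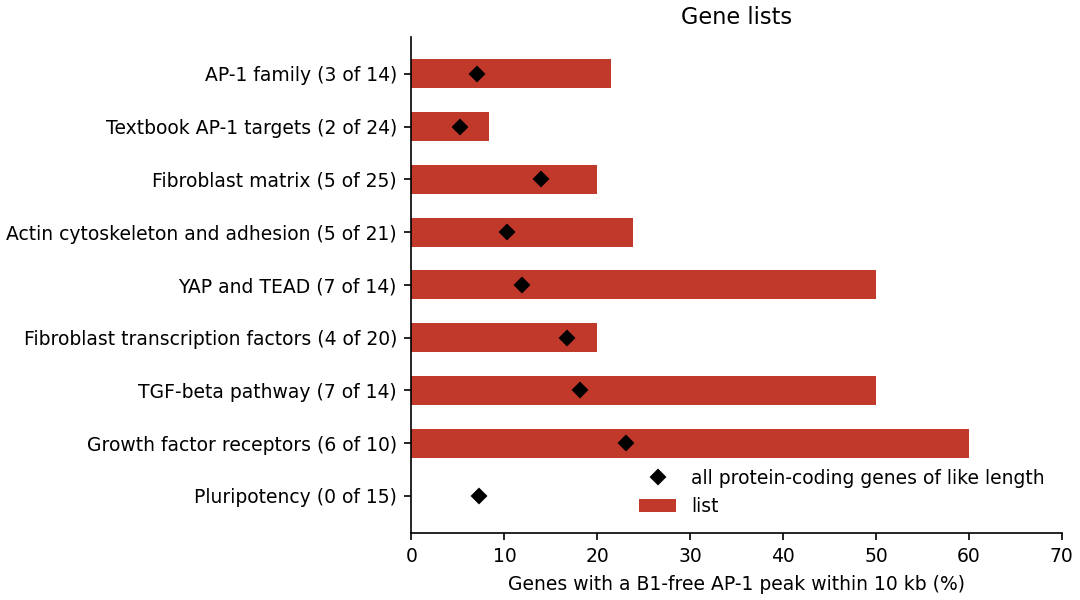
Share of the genes of each list with a B1-free AP-1 peak in the gene or within 10 kb (bars, x axis in %; counts beside the list names) and the share over all protein-coding genes of like length (diamonds). Growth factor receptors, TGF-beta pathway and YAP and TEAD genes reach 50 to 60%. The pluripotency list has 0 of 15 genes, where the share at like length is 7.26%.

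At the edges of the rule, 310 of the 4500 peaks (6.89%) held a weaker or shorter match to the B1 consensus that did not count, of which 71 were matches of 70 to 79 bp. Among the peaks with an AP-1 motif and a counted B1 SINE, 66 had a longest match under 90 bp. The longest B1-free AP-1 peak, 93799 bp in Sgms2, a sphingomyelin synthase gene, consisted to 95.9% of unknown bases in the assembly, and the second longest, in Maml2, to 97.3%. Their length is therefore that of assembly gaps, which 3 of the peaks contained. B1-free AP-1 peaks made up 24.5 to 35.8% of the peaks of each chromosome other than Y, lowest on chromosome 11 and highest on chromosome 13. Their nearest neighbouring peak was a median of 13624 bp away, and 44.8% had one within 10 kb, against 49.8% of the peaks with neither feature.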

How the data were processed

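DamID-seq was done by the authors on MEFs with Dam only (5 samples) and Dam-ZFP266 (5 samples), with 32 ng of genomic DNA per sample. The labels give sorting for mOrange, and the study's methods sorting for GFP. Reads were trimmed with Cutadapt and aligned to GRCm38 with BWA. After removal of mitochondrial and blacklisted reads, the authors took read numbers per DpnII fragment from Rsubread and ran Daim over the pooled samples to call peaks. Versions of Cutadapt, BWA, Rsubread and Daim are not given in the sources used here. The deposited list holds a score, a signal value on a scale that is not stated, and a p-value and q-value as −log10, of which the latter was used. A single list over all samples does not show the variation between them, and peak ends fall on GATC sites, so position is known only to a fragment.

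B1 SINEs were located with blastn 2.17.0 in GRCm38 and the consensus was transcribed by hand from the study's figure. Motifs were exact matches on both strands: TGACTCA for AP-1, TGACGTCA for CRE, GGAATGT for TEAD, TGTGGTT for RUNX, CCGGAAGT for ETS, CCATTGT for SOX, a KLF motif of 4 related 8-base words, and a C/EBP motif of 8 bases with 2 free positions. Genes were curated RefSeq transcripts (45756 transcripts, 21000 protein-coding genes). Sequences were read from RefSeq GRCm38.p6. Shares have Wilson intervals, and no test was run. The steps were tested on simulated sequence. Computation used Python 3.11.15, numpy 2.4.6, pandas 2.3.3, scipy 1.17.1 and matplotlib 3.10.9.

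The gene of a peak is the gene that contains its midpoint, otherwise that of the nearest transcript start. For the gene lists, any peak in the listed gene or within 10 kb counted, also one inside another gene. Named were the 8 strongest peaks by signal value that lay outside Zfp266, the 6 with the most motifs and the 6 with the most per kb, the 8 promoter peaks with the highest signal value, the longest peak, the protein-coding genes with the most peaks (some of which are not reported here) and, for each gene list, up to 3 genes with the strongest peak. Tpm1, Vcl, Man2a1, Akr1e1 and Maml2 were added after their values had been seen. The peaks, gene lists and motifs were chosen with earlier results of these data known. Alternatives covered the B1 definition, stricter peaks, motif position, repeat-masked bases and the annotation. Read coverage was not analysed here.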

Additional observations from a re-analysis of the deposited data

How the results depend on the processing

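No paired analysis was possible because the list covers all 10 samples together, and no replicate could be left out for the same reason. Of 85 values recomputed under 11 changes of a choice, 50 stayed within the 95% interval of the value in the report, or within 1.5 times a count, and 35 moved. Keeping only peaks with q under 0.05 and signal value above 1 left 1019 peaks, with 31.9% holding 2 or more motifs, 50.03% of motifs in the central part, a median signal value of 1.15, 37.6% in introns, 59.2% between genes and 2.55% of genes within 10 kb. The top 25% of all peaks by score left 1172, for which these values were 40.4%, no move, 1.06, 39.9%, 57.1% and 2.73%, and 58.0% met the q and signal threshold. A motif within 500 bp of the midpoint left 2832 peaks with 39.3%, 67.9%, 0.878, 40.96%, 55.6% and 6.66%, and 24.6% met the threshold. Some of these moves follow from the choice of peaks itself and say nothing about stability. They include the median signal value above 1 under the threshold and the higher central share with a motif near the midpoint. Smaller sets of peaks also reach fewer genes. Keeping only peaks with a motif outside repeat-masked bases left 3909. Of these, 38.8% held 2 or more motifs, with motifs in masked bases still counted. Their median signal value was 0.837, and 8.46% of genes had one within 10 kb. With no B1 SINE within 1 kb, the median signal value was 0.839, the distance to a transcript start 42117 bp and the genes 6.89%. The stricter B1 definition (at least 100 bp at 85% identity) gave 32952 bp and 11.1% of genes, and the looser (at least 50 bp) 9.1% of genes. With GENCODE vM21 basic transcripts, 47.5% lay in introns, 46.6% between genes and the distance was 16510.5 bp, so introns then held more peaks than intergenic stretches did. With a largest step of 50 bp, chosen after seeing the data, 60.4% of tandem runs lay in a peak. The share of motifs near a TEAD motif and all values without the peaks in Zfp266 did not move. The limits come from the single list over all samples: no depth, no error between samples, and no position finer than a DpnII fragment.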
